A study of Saccharomyces cerevisiae YPS1009 with 8 samples.

Results

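The genes described here lie on yeast chromosome XII between its left telomere and the ribosomal DNA (rDNA), the tandem array of ribosomal RNA genes on the right arm. They were chosen by systematic name (YLL for the left arm, YLR up to YLR162 for the right arm) and by a minimum of 20 reads summed over all 8 libraries, and 25 gene numbers were left out by the same rule. Of 208 rows with such names, 185 reached the minimum, out of 6536 rows in the tables and 5859 genes tested. The left arm gave 53 of these genes and the right arm 132. The read sum that chose the members does not compare the strains. Just inside the minimum lay YLR112W with 20 reads, PAU23 with 21 and GAT3 with 24, and just outside lay YLR041W with 19 and YLR076C with 17. In the reference gene order of strain S288C the rDNA lies between RNH203 (YLR154C) and the ASP3 genes. All 5 rows named YLR155 to YLR162 were under the minimum, so RNH203 was the last member and none lay beyond the array.

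Ribosome profiling sequences the stretches of mRNA that ribosomes protect, so a read count reflects both how much of an mRNA a cell holds and how densely ribosomes occupy it. In an aneuploid strain every gene of the extra chromosome is present in an additional copy, and in yeast the products of most such genes rise roughly with the copy number, while some are held closer to the euploid level. Chromosome XII is the largest yeast chromosome when the rDNA repeats are counted, and the genes between its left telomere and that array cover most functions of the cell, from ribosome assembly to metabolism and transport.

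Ribosome-protected fragments were sequenced from haploid cells of the wild strain YPS1009, as a euploid and as an aneuploid with an additional chromosome XII (Chr12). Both were grown in YPD at 30 °C from an OD600 of 0.05, and were taken in log phase after 3 generations and at day 4 of culture, with 2 replicates in each of the 4 groups. The study's strain list places drug-resistance or auxotrophic marker cassettes on chromosome XII of its marked strains, but the labels do not say which listed strain or clone was sequenced. They also do not say whether the replicates came from separate colonies, so p-values measure only the spread between these libraries. Library totals ran from 1455211 to 2354539 reads in log phase. At day 4 they were 211302 (euploid replicate 1), 396306 (Chr12 replicate 1), 2224955 (Chr12 replicate 2) and 6215498 (euploid replicate 2), so replicate 1 was shallow in both strains. The median member held 8 reads in the shallowest library and 176 in the deepest, and 166 of the 185 members had at least 1 read in all 8 libraries. HIS3, which the strain list deletes in one Chr12 strain and which is no member, had 87 and 75 reads in the Chr12 log phase libraries against 75 and 36 in the euploid ones, so it did not separate the strains.

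The members took a larger share of the footprint reads in Chr12 than in the euploid in all 4 replicate pairs. Their log phase share was 1.02% (95% Wilson interval 1.01 to 1.04) and 1.33% (1.31 to 1.35) in the euploid replicates, and 1.79% (1.78 to 1.81) and 1.97% (1.95 to 1.99) in the Chr12 replicates. At day 4 the euploid replicates had 1.57% (1.52 to 1.62) and 1.10% (1.09 to 1.11), against 2.24% (2.20 to 2.29) and 2.33% (2.31 to 2.35) in Chr12. The Chr12 and euploid libraries did not overlap in either phase. Within pairs the share was 1.75-fold and 1.48-fold higher in Chr12 in log phase, and 1.43-fold and 2.12-fold higher at day 4. With 2 libraries per group an exact permutation test cannot reach 0.05, and the intervals cover counting error only, since no removal of duplicate reads is described. A share is relative to all other reads of its library, and in a bulk culture fewer footprints per cell and fewer cells with footprints cannot be told apart.

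**Figure D1:**
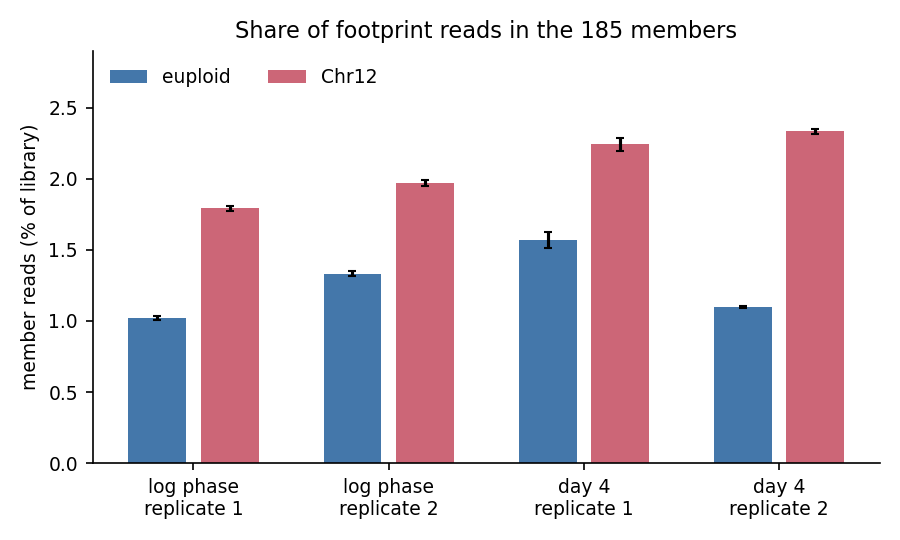
Reads in the 185 members as a percent of all reads of the library (vertical axis), by phase and replicate, with 95% Wilson intervals as error bars. The 4 Chr12 libraries lie between 1.79% and 2.33%, above all 4 euploid libraries, which lie between 1.02% and 1.57%.

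A few genes made up much of this share. In log phase the 10 members with the most reads held from 46.8% to 55.6% of all member reads, and at day 4 from 15.7% to 30.8%. RPL8B, a protein of the large ribosomal subunit, alone held from 20.4% to 27.2% of member reads in log phase and from 1.90% to 3.31% at day 4. Its reads may be split with those of the near-identical RPL8A, so its level is uncertain. FCF2, which takes part in pre-rRNA processing, held 19.4% and 11.4% of member reads in replicate 2 of euploid and Chr12 log phase, against 1.79% and 2.16% in replicate 1. A single nucleotide position accounted for 92.4% and 83.8% of the FCF2 reads in those replicate 2 libraries. Over all libraries 4 members had more than 50% of their reads at 1 position, and the median member had 7.01% there.

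Dosage was therefore followed gene by gene, as the log2 ratio of Chr12 to euploid fitted by edgeR and set relative to the median of the 5354 tested genes outside chromosome XII. A value of 0 is then the euploid level and a value of 1 a doubling. The median member lay at 0.79 in log phase, a 1.73-fold ratio, with quartiles of 0.42 and 1.04. At day 4 it lay at 0.86, a 1.81-fold ratio, with quartiles of 0.25 and 1.36. In log phase 160 of the 185 members lay above the outside median and at day 4 156 did. Within the pairs the medians were 0.79 (replicate 1) and 0.76 (replicate 2) in log phase, and by day 4 they were 0.50 and 0.86. The gap between the day 4 pairs varied with read number. Their medians were 0.20 and 0.89 for the 62 members with the fewest reads. For the next 61 they were 0.83 and 0.79, and for the 62 with the most 0.64 and 0.86. Pair ratios use 0.5 added reads, so a member with 0 reads in both strains still takes a value. PAU23 took -0.92 this way in day 4 pair 1, and YLL059C took 1.34 in day 4 pair 2. The day 4 gap was thus not separated from the effect of the added reads. Without euploid day 4 replicate 2, the deepest library, the day 4 median was 0.61.

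The spread around these medians was wider at day 4, as it was for genes outside the chromosome. The members had an SD of 0.59 in log phase and 1.24 at day 4, and the genes outside chromosome XII one of 0.54 and 1.16. In log phase 132 members lay within 1.5-fold of a doubling, that is between 1.33-fold and 3-fold, 46 lay below that band and 7 above it. At day 4, 95 lay within it, 59 below and 31 above. Of the 5354 outside genes, 741 fell in the same band in log phase and 1319 at day 4. Values of single members reproduced poorly: across the 185 genes, which are not independent replicates, the 2 pairs correlated at r = 0.20 in log phase and 0.25 at day 4.

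**Figure D2:**
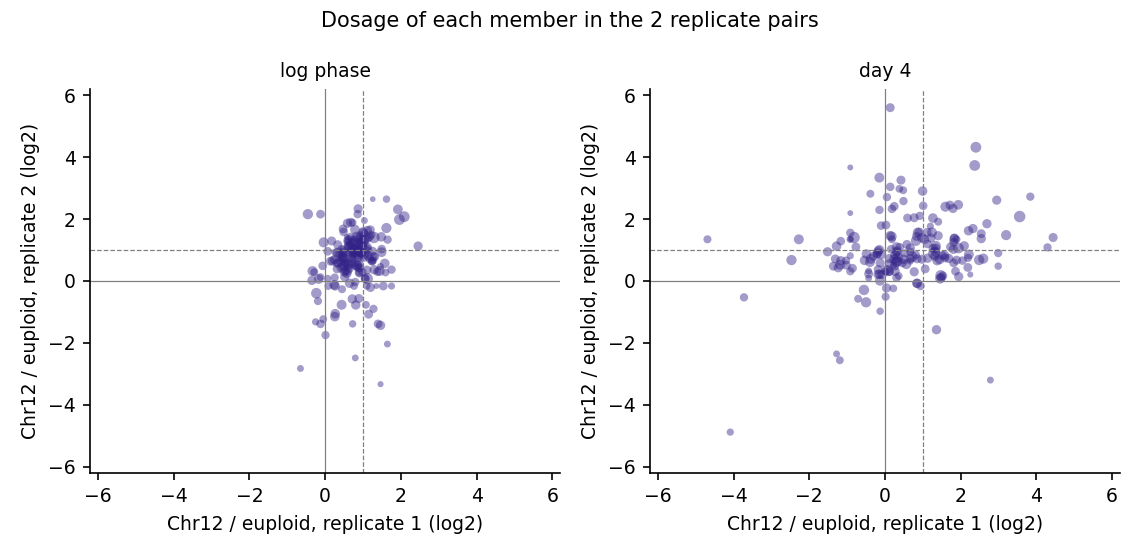
Log2 ratio of Chr12 to euploid of each member in replicate pair 1 (horizontal axis) and pair 2 (vertical axis), relative to the median of the genes outside chromosome XII, in log phase (left) and at day 4 (right). Solid lines mark the euploid level and dashed lines a doubling, and larger points have a higher mean CPM; most members lie right of and above the solid lines, with r = 0.20 in log phase and a wider cloud with r = 0.25 at day 4.

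Chromosome XII genes past the rDNA had similar values, given here as a description with no test. Their median over 294 genes was 0.71 in log phase and 0.77 at day 4, against 0.79 and 0.86 for the members. The members of the left arm had medians of 0.64 and 0.59, and those of the right arm 0.83 and 0.89. Within the log phase pairs the left arm medians were 0.73 and 0.78 and the right arm medians 0.82 and 0.75, so the order of the arms changed between replicates. In the day 4 pairs the left arm had 0.32 and 0.85 and the right arm 0.67 and 0.88.

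Along the chromosome, windows of 15 members in the order of their systematic names had medians from 0.18 to 1.04 in log phase and from 0.39 to 1.46 at day 4, with the last window holding only 5 genes. The window with the lowest log phase median ran from YLL067C, next to the left telomere, to FRE6, a ferric reductase gene, with 0.73 and 0.12 in the 2 pairs. This window holds YLL066C and YLL067C, which belong to a family of subtelomeric repeats and shared all of the reads listed for YLL067C. Near-identical copies lie at other chromosome ends, so the values of both are uncertain. They stood at -0.17 and -0.13 in log phase. Their log phase signs differed between replicates, with 0.26 and 0.27 in pair 1 and -1.15 and -1.06 in pair 2. The highest full window in both phases ran from STU2, a microtubule-binding protein, to SND2, which helps target proteins to the endoplasmic reticulum, with 1.04 in log phase and 1.30 at day 4. Its 4 pair medians lay between 1.03 and 1.25. At the rDNA end, the window of 5 genes from GID11 to RNH203 had 1.01 in log phase and 1.46 at day 4.

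**Figure D3:**
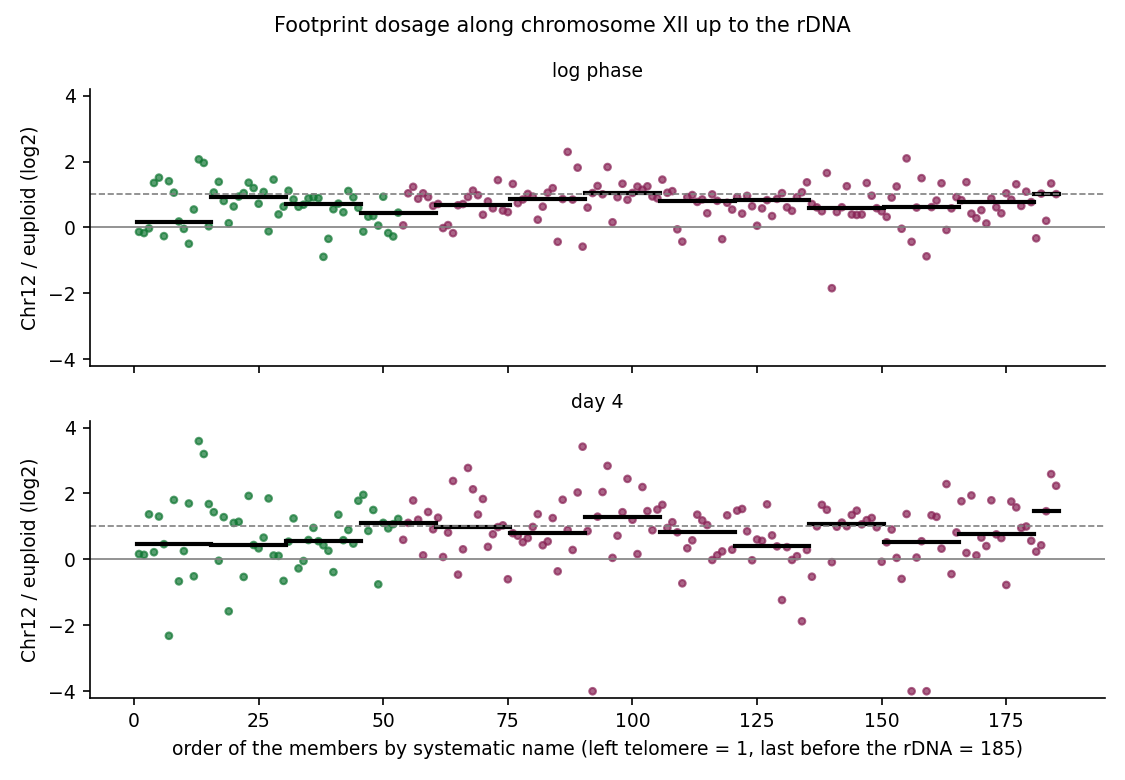
Log2 ratio of Chr12 to euploid of each member (points, left arm green, right arm purple) in the order of the systematic names from the left telomere to the rDNA, in log phase (top) and at day 4 (bottom), relative to the median of genes outside chromosome XII. Black bars are medians of windows of 15 members, the solid line is the euploid level and the dashed line a doubling, and 3 members below -4 at day 4 are drawn at -4; all window medians lie above 0, from 0.18 to 1.04 in log phase and from 0.39 to 1.46 at day 4.

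No single member passed an FDR of 0.05 in the comparison of the strains by edgeR's quasi-likelihood test. In log phase 0 of 185 members passed, as did 0% of all 5859 genes, and DESeq2 also called 0 members, against 0.0171% of all genes. At an unadjusted p under 0.05, 17 members (9.19%) stood out against 1.78% of all genes, and all 17 were higher in Chr12. That count was 3 without Chr12 log replicate 2, 4 and 6 without euploid log replicate 2 or 1, 32 without either euploid day 4 replicate, and 58 with the replicate block within phase. At day 4, 0 members passed against 0.0683% of all genes, while 33 members (17.8%) against 8.48% of all genes had an unadjusted p under 0.05, 32 of them higher in Chr12. That count was 15 without Chr12 day 4 replicate 2, 20 without either Chr12 log replicate, 57 without euploid day 4 replicate 2, and 68 with the block. The share of all genes at an unadjusted p was not counted under these alternatives, so their counts have no background beside them. With the replicate number as a block within each phase, 6 members passed at day 4, against 1.84% of all genes, and DESeq2 without a block also called 6, against 1.59%. Both named AQY2, YLL053C, EMA19, ZRT2 and ACS2. The block added REX2 and DESeq2 added MEU1, and REX2 and MEU1 are named here after their values were seen.

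The steadiest members across the 4 pairs were counted without a test. In all 4 pairs 96 of 185 members (51.9%) lay above the outside median, against 11.4% of all genes tested. Genes past the rDNA did so at 49.3%. In all 4 pairs 9 members lay above a doubling (4.86%), against 0.427% of all genes and 3.4% of genes past the rDNA. The 9 members were AQY2, YLL053C, EMA19, REX2, ERG27, ACS2, ENT4, an epsin-like protein, the rRNA methyltransferase gene BMT6 and the signal peptidase gene SPC3. ENT4 and SPC3 had 0 reads in euploid day 4 replicate 1. Their log2 ratios of 4.29 and 4.44 in that pair thus rest on the 0.5 added reads, against 1.08 and 1.40 in day 4 pair 2. Only 2 genes of the whole table exceeded 3-fold in all 4 pairs (0.0341%), and both were members, AQY2 and YLL053C.

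AQY2 encodes a water channel of the aquaporin family, and in some yeast strains its reading frame is continuous with that of the neighbouring YLL053C. In log phase AQY2 stood at 218 and 275 CPM (reads scaled to a common library size by TMM) in the euploid, and Chr12 reached 820.2 and 1053. By day 4 the euploid libraries held 52.6 and 39.8 CPM and the Chr12 libraries 255 and 499. The strains did not overlap in either phase. The fitted ratio relative to the outside median was 3.88-fold in log phase and 9.17-fold at day 4. Its fitted log2 fold change at day 4, not set relative to that median, was 3.05 ± 0.53 (SE) with an adjusted p of 0.162 in edgeR, 0.0202 with the replicate block and 1.50e-05 in DESeq2.

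YLL053C, an uncharacterised reading frame with similarity to water channels, had log phase levels of 174 and 299 CPM in the euploid against 717 and 1221 in Chr12. Its day 4 levels were 56.4 and 39.4 CPM against 278 and 742, again with no overlap. The windows of the 2 genes share 182 positions of the same strand, which held 53.8% of the AQY2 reads and 48.5% of the YLL053C reads, so they are not independent observations. Counted outside the shared positions, AQY2 had 227 and 138 euploid reads against 969 and 535 Chr12 reads in log phase, and 8 and 109 against 103 and 531 by day 4. Those reads gave ratios of 3.92-fold and 3.45-fold in log phase, and 6.45-fold and 12.3-fold at day 4. For the part of YLL053C that AQY2 does not cover, the ratios were 4.69-fold and 4.13-fold in log phase, and 6.49-fold and 27.6-fold at day 4.

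EMA19, which takes part in the targeting of mitochondrial proteins at the endoplasmic reticulum, was also fitted above 3-fold in both phases. Its log phase reads were 44 and 43 in the euploid against 265 and 106 in Chr12, or 24.3 and 33.6 against 129.7 and 71.5 CPM. Its day 4 reads were 2 and 65 in the euploid against 36 and 157 in Chr12, or 7.51 and 10.5 against 65.1 and 60.9 CPM. The ratios were 3.56-fold and 7.14-fold, and at day 4 its adjusted p was 0.186 in edgeR, 0.0369 with the replicate block and 0.0116 in DESeq2.

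ACS2, the acetyl-CoA synthetase that yeast uses during growth on glucose, lies next to the last member before the rDNA. Its log phase levels were 783 and 879 CPM in the euploid against 1848 and 2253 in Chr12, a 2.52-fold ratio. The day 4 levels were 124 and 436 CPM against 1345 and 1739, a 6.01-fold ratio. The strains overlapped in neither phase. The replicate pairs at day 4 gave log2 ratios of 3.56 and 2.08, the first from 33 euploid reads. The adjusted p at day 4 was 0.353 in edgeR, 0.0311 with the replicate block and 0.0107 in DESeq2.

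ZRT2, a low-affinity zinc transporter, had log phase levels of 32 and 27.3 CPM in the euploid against 27.4 and 27.6 in Chr12, a 0.948-fold ratio, with the strains overlapping. The day 4 levels were 48.8 and 54.4 CPM against 175 and 283, a 4.87-fold ratio, with no overlap. Its adjusted p at day 4 was 0.218 in edgeR, 0.0274 with the replicate block and 0.0127 in DESeq2. The difference between the phases in the strain difference had the smallest p of any member, with an adjusted p of 0.797 in edgeR. By edgeR 0 members passed that interaction test, against 0% of all genes. At an unadjusted p under 0.05 there were 2 members (1.08%, against 4.13% of all genes). The latter count ranged from 2 to 24 with 1 library left out, the highest without euploid day 4 replicate 2, and was 12 with the block within phase. The share of all genes at an unadjusted p was not counted under these alternatives. DESeq2 also called 0 members, against 0.632% of all genes.

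YPS1, a cell-surface aspartyl protease, had log phase levels of 20.4 and 14.8 CPM in the euploid against 75.4 and 72.8 in Chr12, a 4.27-fold ratio with no overlap. Its day 4 levels were 67.6 and 115 CPM against 114 and 322, a 2.60-fold ratio. The day 4 libraries overlapped in part, since Chr12 replicate 1 lay at the level of euploid replicate 2. ERG27, a sterol biosynthesis enzyme chosen after its values were seen, was near 3-fold in both phases (3.14-fold and 2.84-fold).

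**Figure D4:**
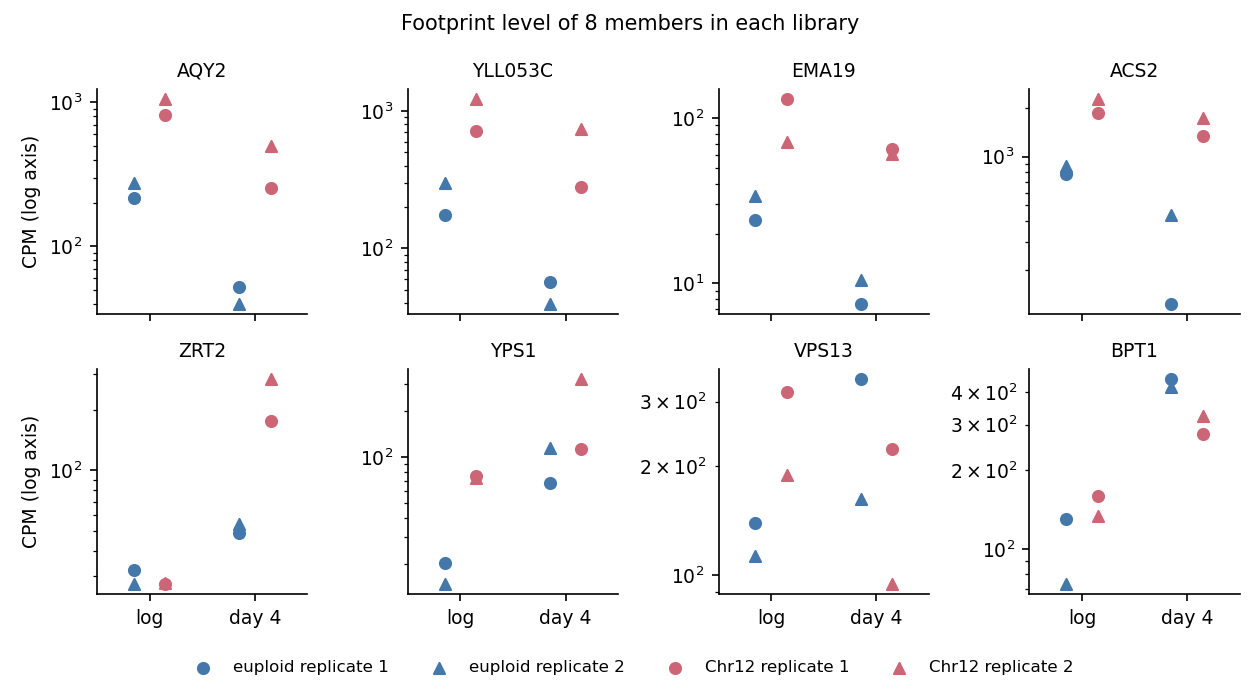
CPM (logarithmic axis, a separate scale in each panel) of 8 members in each library, with the euploid in blue, Chr12 in red, replicate 1 as circles and replicate 2 as triangles. AQY2, YLL053C, EMA19 and ACS2 lie higher in both Chr12 libraries than in both euploid libraries in each phase, ZRT2 only at day 4, and VPS13 and BPT1 lie lower in Chr12 within each day 4 pair.

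Other members stayed near or below the euploid level. In all 4 pairs 6 members lay under 1.33-fold (3.24%, against 26.9% of all genes and 2.72% of genes past the rDNA). The 6 members were KNS1, the mismatch repair gene MLH2, the ESCRT-I gene SRN2, YLL056C, YLR120W-A and YLR125W. Of these only YLR125W lay below the outside median in every pair (0.541% of members, against 6.49% of all genes and 0.34% of genes past the rDNA). YLR125W, of unknown function, had 11 and 14 euploid reads against 10 and 6 Chr12 reads in log phase. Its day 4 reads were 4 and 37 against 0 and 0. Its mean euploid level at day 4 was 10.5 CPM, and a floor of 3 reads in each Chr12 library gave a mean of 3.29 CPM. These means differ 3.19-fold, a value not set relative to the outside median and resting on few reads. KNS1, a kinase that acts on RNA polymerase III control, had log phase levels of 7.17 and 10.1 CPM in the euploid against 5.87 and 7.42 in Chr12, from 11 to 13 reads per library. Its day 4 levels were 488 and 636 against 472 and 749 CPM, a 1.20-fold ratio.

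VPS13 and BPT1, both with many reads, were above the euploid in both log phase pairs and below it in both day 4 pairs. VPS13, a lipid transfer protein at membrane contact sites, had log phase levels of 139 and 113 CPM in the euploid against 320.0 and 188 in Chr12, a 2.06-fold ratio. Its day 4 levels were 346 and 162 against 222 and 94.6, a 0.691-fold ratio, lower within each pair while the groups overlapped. BPT1, a vacuolar transporter, stood at 130.1 and 73.4 against 159 and 134 CPM in log phase, and at 447 and 419.8 against 277 and 323 at day 4, a 0.765-fold ratio with no overlap. COX17, a copper chaperone for cytochrome oxidase, went the other way, from 37.5 and 63.2 against 28.4 and 62 CPM in log phase to 7.51 and 41 against 54.2 and 139 at day 4. KIN2, a kinase of the secretory pathway, stood at 853 and 55.2 CPM in euploid day 4 and at 139 and 83 in Chr12. A single position held 57.3% and 53.2% of its euploid and Chr12 reads in day 4 replicate 1, against 6.45% and 5.14% in replicate 2. In day 4 replicate 1 the highest position held 130 euploid and 41 Chr12 reads. Its part in the KIN2 ratio was not tested apart from the fit of all genes without their highest position. ACF2, an intracellular glucanase, had 50 and 193 reads in euploid day 4 against 40 and 102 in Chr12, with log2 ratios of -1.24 and 0.43 in the pairs. XYL2, which converts xylitol, had log2 ratios of 0.72 and -0.58 in the log phase pairs, so its sign depended on the replicate. In log phase replicate 2 the highest position of XYL2 held 118 euploid reads (92.9%) and 90 Chr12 reads (94.7%). In log phase replicate 1 it held 50% and 44.8%.

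The departure of chromosome XII genes from an expected doubling was tested in the same model with an offset of log(2) for those genes in Chr12. Genes outside the chromosome had no offset, so for them the test was the plain strain difference. The shares of all genes given beside the members are thus not a like background. The share of genes past the rDNA was not counted. By edgeR 0 members departed in log phase and 0 at day 4, against 0% and 0.0683% of all genes. At an unadjusted p under 0.05 the members numbered 2 in log phase (1.08%, against 1.02% of all genes), both below the doubling. At day 4 they numbered 14 (7.57%, against 7.46% of all genes), 6 above the doubling and 8 below. With 1 library left out these counts ranged from 0 to 4 in log phase, the lowest without replicate 2 of either strain's log phase and the highest without either euploid day 4 replicate. At day 4 they ranged from 8 without euploid log replicate 2 to 35 without euploid day 4 replicate 2. With the replicate block within phase they were 12 and 36. The share of all genes at an unadjusted p was not counted under these alternatives. With the block 1 member (0.541%) passed the FDR at day 4, against 1.31% of all genes. This was YLL059C, named after its values were seen, with 147 and 0 euploid reads against 57 and 0 Chr12 reads, so that it rested on replicate 1 alone.

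Grouped by function, the groups had medians from 0.28 to 0.97 in log phase and from 0.15 to 1.35 at day 4, beside 0.79 and 0.86 for all members and 0.03 and 0.06 for all genes tested. The 14 members for ribosome assembly and rRNA had medians of 0.97 in log phase and 1.12 at day 4. By the fitted ratio all 14 lay above the outside median in both phases, beside 86.5% and 84.3% of all members. In all 4 pairs 11 of the 14 did, beside 51.9% of all members. NOC3, needed for the transport of large ribosomal subunits inside the nucleus, had log phase levels of 197 and 145 CPM in the euploid against 361 and 326 in Chr12. SDO1, which matures the large subunit, stood at 53.5 and 81.2 against 145 and 212. The 8 members for mRNA splicing and 3′ end processing had medians of 0.91 and 0.86. Among them CLF1 of the spliceosome was 1.87-fold in both phases, and PRP19, its core ubiquitin ligase, was 2.29-fold and 1.35-fold.

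The 12 members for DNA replication, repair and chromosome segregation had a lower log phase median of 0.62 and one of 0.89 at day 4, with 8 and 10 of them above the outside median. RAD5, a DNA repair helicase, was 1.55-fold and 1.35-fold, and STU2 1.52-fold and 1.81-fold. The 6 cell cycle members had medians of 0.81 and 0.66. SIC1, an inhibitor of cyclin-dependent kinase, was 1.75-fold in log phase and 1.09-fold at day 4. The 12 members for chromatin and transcription had medians of 0.92 and 0.44. RSC58 of the RSC remodelling complex was 2.08-fold and 1.46-fold, and IOC2 of the ISW1 complex 1.89-fold and 1.07-fold.

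Among the 19 members of the secretory pathway and vesicle traffic the medians were 0.85 and 0.59. SNF7, a subunit of the ESCRT-III complex, had log phase levels of 64 and 84.3 CPM in the euploid against 124 and 238 in Chr12, and day 4 levels of 154 and 279 against 233 and 451. The 12 mitochondrial members had medians of 0.47 in log phase and 1.14 at day 4. ALT1, the mitochondrial alanine transaminase, was 1.78-fold and 3.18-fold, and ISA1, which assembles iron-sulfur clusters, 1.54-fold and 0.827-fold. The log2 ratios of ISA1 were -0.04 and 1.25 in the log phase pairs, and -1.18 and 0.52 in the day 4 pairs. In day 4 replicate 1 the highest position of ALT1 held 11 euploid reads (45.8%) and 186 Chr12 reads (66.7%). In day 4 replicate 2 it held 7.17% and 4.02%, so the day 4 value of ALT1 is uncertain. The 8 signalling and mRNA-binding regulators had medians of 0.53 and 1.35, and the 15 membrane transporters 0.85 and 1.28. The 15 members of small-molecule metabolism had medians of 0.85 and 0.81. ADE16, an enzyme of purine synthesis, was 2.02-fold and 1.56-fold, and AAT2, the cytosolic aspartate aminotransferase, 1.80-fold and 1.43-fold. The 6 members for cell surface, polarity and actin had medians of 0.96 in both phases. COF1, the actin-severing cofilin, was 2.08-fold and 2.70-fold, and SPA2 of the polarisome 1.85-fold and 1.47-fold. The 4 subtelomeric members had medians of 0.28 and 0.15, with only 2 and 3 of them above the outside median. None of these group values was tested, and the single-gene values within each group overlapped those of the others.

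The members were also compared between log phase and day 4 within each strain. In the euploid 39 of 185 members passed (21.1%, against 26.8% of all genes). Of these 24 rose (13%, against 15.4%) and 15 fell (8.11%, against 11.4%). In Chr12 33 passed (17.8%, against 22.6%), 21 of them rising (11.4%, against 13.1%) and 12 falling (6.49%, against 9.47%). In both strains 17 members rose (9.19%, against 10.8% of all genes) and 8 fell (4.32%, against 7.82%), and none changed in opposite directions. Each of these shares was below the background. Each value is a share of its library, and no spike-in is described, so a rise is a larger share of the footprints then present. DESeq2 called 47 and 43 members, against 29.2% and 26.8% of all genes. With the replicate number as a block 57 members passed in the euploid (against 32.9% of all genes), 25 of them falling, and 47 in Chr12 (28.9%), 19 of them falling. The counts rested on single libraries. In the euploid they were 12 and 8 without euploid log replicate 1 or 2, against 11.7% and 11% of all genes. They were 25 without Chr12 log replicate 1, Chr12 log replicate 2 or Chr12 day 4 replicate 1, against 22%, 21.8% and 21.6%. In Chr12 they were 11 and 1 without Chr12 log replicate 1 or 2, against 7.9% and 1.08% of all genes, and 12 and 6 without Chr12 day 4 replicate 1 or 2, against 7.2% and 7.22%. They were 21 without either euploid log replicate, against 16.6%. The member left without Chr12 log replicate 2 was KNS1, so every other call in Chr12 named below was lost without that library.

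**Figure D5:**
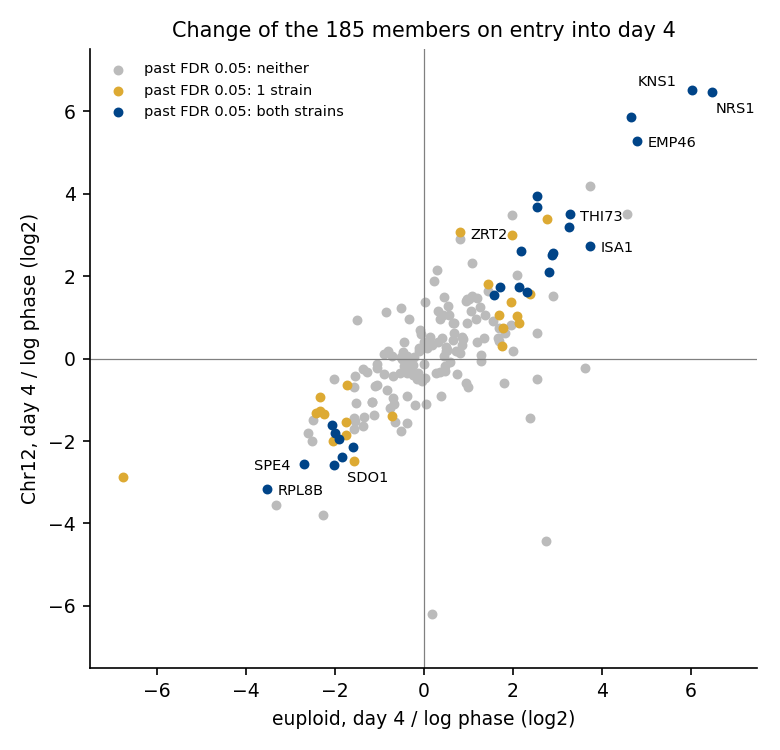
Log2 ratio of day 4 to log phase of each of the 185 members in the euploid (horizontal axis) and in Chr12 (vertical axis), coloured by whether the member passed an FDR of 0.05 in neither strain, in 1 or in both. The 17 members that rose in both strains lie in the upper right, led by NRS1, KNS1 and EMP46, and the 8 that fell in both lie in the lower left, led by RPL8B.

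The largest rises were in genes with almost no footprints in log phase. NRS1, a regulator of the start of the cell cycle under nitrogen limitation, had log phase reads of 1 and 0 in the euploid against 1 and 2 in Chr12, and day 4 reads of 5 and 269 against 36 and 252. Its log2 rise was 6.47 ± 0.92 (SE) in the euploid and 6.46 ± 0.81 in Chr12 (edgeR adjusted p of 0.00284 and 0.00328), but with so few log phase reads the size is poorly set. KNS1 had 13 and 13 reads in euploid log phase and 130 and 3928 at day 4, and in Chr12 12 and 11 against 261 and 1933. Its log2 rise was 6.02 ± 0.57 in the euploid and 6.52 ± 0.58 in Chr12, with edgeR adjusted p of 0.00143 and 0.00198. YLL020C followed it with 4.66 and 5.86, but all of its reads lie in the window of KNS1, so it is not a separate result. EMP46, a lectin-like cargo receptor of transport vesicles, rose in the euploid from 8 and 17 reads to 64 and 1496, and in Chr12 from 12 and 11 to 92 and 900, by 4.79 ± 0.70 and 5.28 ± 0.71 on the log2 scale. THI73, a putative organic acid permease, rose by 3.28 ± 0.99 and 3.5 ± 0.93.

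Others that rose in both strains, named after their values were seen, included TIS11, which promotes the decay of mRNAs under iron shortage (2.54 in the euploid and 3.95 in Chr12), ISA1 (3.75 and 2.73), FRA1, which restrains the iron regulon (2.31 and 1.62), the vacuolar SNARE gene NYV1 (2.91 and 2.56), the nuclear pore gene POM33 (2.14 and 1.74) and PUF3, which binds mRNAs of mitochondrial proteins (1.72 and 1.73). FRA1 stood at 77.7 and 65.6 CPM in euploid log phase and 319 and 390.4 at day 4, and in Chr12 at 138 and 166 against 363 and 571, with no overlap between phases. Of the 8 signalling and mRNA-binding regulators 3 rose and 2 fell in the euploid, and 3 rose and 1 fell in Chr12. Of all genes 15.4% rose and 11.4% fell in the euploid, and 13.1% and 9.47% in Chr12. HOG1, the kinase of the osmotic stress pathway, fell in both, by 1.99 and 1.81 on the log2 scale.

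Of the 8 members that fell in both strains, 5 make or form part of ribosomes. RPL8B went in the euploid from 3254 and 3233 CPM to 237 and 326, and in Chr12 from 4480.0 and 5382 to 531 and 569, with log2 changes of -3.52 ± 0.46 and -3.16 ± 0.45 (SE, edgeR adjusted p of 0.00249 and 0.00497). Of the 14 members for ribosome assembly and rRNA 5 fell in the euploid and 6 in Chr12, and 0 rose. Over all genes tested the share that fell was 11.4% in the euploid and 9.47% in Chr12, and the share that rose was 15.4% and 13.1%. SDO1 fell by 2.01 and 2.58 on the log2 scale, SOF1, of the small subunit processome, by 1.83 and 2.38, NOC3 by 1.91 and 1.95, and RIX7, which releases factors from the large subunit, by 1.60 and 2.13. The median change over these 14 was -1.68 in the euploid and -1.69 in Chr12, beside 0.31 and 0.17 over all members and 0.38 and 0.25 over all genes. FCF2 belongs to the group too, at -3.33 and -3.56, but did not pass in either strain, with log phase levels of 213 and 2936 CPM in the euploid and 446 and 2989.7 in Chr12. SPE4, which makes spermine, fell in the euploid from 56.8 and 42.9 CPM to 7.51 and 7.61, and in Chr12 from 87.6 and 155 to 21.7 and 19.8, with an edgeR adjusted p of 0.00713 and 0.00896. EMP70, an endosomal membrane protein, fell by 2.06 and 1.62 on the log2 scale.

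A further 22 members passed in 1 strain and not in the other (11.9%, against 12.1% of all genes), which does not show that the strains differ, and 0 members passed the test of that difference in edgeR. AQY2 fell from 218 and 275 CPM to 52.6 and 39.8 in the euploid (log2 change -2.44 ± 0.52, edgeR adjusted p 0.0116) and stood at 820.2 and 1053 against 255 and 499 in Chr12 (-1.31 ± 0.49, adjusted p 0.0948). ZRT2 stood at 32 and 27.3 against 48.8 and 54.4 CPM in the euploid (0.81 ± 0.43, adjusted p 0.211) and rose from 27.4 and 27.6 to 175 and 283 in Chr12 (3.06 ± 0.45, adjusted p 0.00497). These comparisons use the same libraries as the strain differences given above and add no independent evidence to them.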

How the data were processed

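Per the study's methods, the authors trimmed adapters, discarded reads from noncoding RNAs and mapped what was left with bowtie2 to a YPS1009 assembly. Each read was then assigned to the nucleotide of its first base, over a window that began 72 nt upstream of the start codon and ended 60 nt downstream of the stop codon. The deposited tables hold these raw read counts, one row per gene, with no normalization. Here a gene's count was the sum of its row, and rows absent from a table were taken as 0. The tables named for YPS1009 were used. A second table of each replicate 1 library, whose making is not given in the sources used here, served as an alternative. The 4 rows with no systematic name were left out. Symbols came from the RefSeq R64 gene table, with no coordinates.

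Counts of genes with at least 20 reads were fitted with edgeR 4.0.16 in R 4.3.3 (quasi-likelihood, TMM scaling, the 4 group means over all 8 libraries), with Benjamini-Hochberg adjustment over all 5859 genes. Ratios within pairs used 0.5 added reads. DESeq2 1.42.0, other scalings, filters and gene counts, a replicate block and each library left out were alternatives. In the study's design the strains are paired by replicate, and deviations of same-numbered libraries from their group means correlated at 0.74 in log phase and 0.53 at day 4, so values with the block are given where they change a call. Members named were the 10 with the most reads, those past the FDR, in each phase the 4 highest and 4 lowest among members with at least the median member reads of that phase and both pairs on 1 side of the member median, the 5 largest rises and falls shared by both strains, and the 2 with the most reads in each function list. One gene that this rule names is not reported here. Sequences and promoter motifs were not analysed here. The members and lists were chosen with earlier results of these data known.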

Additional observations from a re-analysis of the deposited data

Results flagged for a closer look

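With 2 libraries in a group no library could be tested as standing apart from its group. Of 41 named members 4 had Chr12 to euploid ratios on one side of the outside median in both log phase pairs and on the other side in both day 4 pairs, as did 6 of all 185. The share over all genes was not counted, so these counts do not show a trait of the members. VPS13 and BPT1 were among the members named for their low day 4 ratios. The difference between the phases (day 4 minus log phase, log2) was -1.69 for VPS13, -1.05 for BPT1, 0.49 for KNS1 and 1.21 for YLL020C, whose reads are all shared with KNS1. None passed edgeR's interaction test, with an adjusted p of 0.999 for VPS13, BPT1 and KNS1.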

How the results depend on the processing

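Over the alternatives the dosage medians of the members did not change direction. Nor did an entry result of a named member past the FDR in the main fit, or a strain difference of one past it in an alternative. Other changes of sign over the alternatives were not counted. Single members changed sign between replicate pairs. Examples are XYL2, THI73, COX17, YLL066C and YLL067C in log phase, ACF2, KIN2 and FCF2 at day 4, and ISA1 in both phases. The number of members called stayed at 0 in all alternatives run for the strain difference in log phase, its difference between phases and the log phase departure from a doubling. At day 4 the strain difference, with 0 members in edgeR, gave 6 with DESeq2 (1.59% of all genes), 6 with the replicate block within phase (1.84%), 8 with each occupied position counted as 1 read (1.35%, chosen after seeing the data), 2 with the second tables of replicate 1 (0.666%) and 1 without each gene's highest position (0.512%), and 0 with any library left out. The departure from a doubling at day 4 gave 1 with the block (1.31%). Entry into day 4 in the euploid, with 39 members, gave 66 with 1 read per position (38.3% of all genes), 63 with the second tables (37.7%), 57 with the block (32.9%) and 16 with only the 2 groups compared (13.9%). The rises went from 24 to 11 with only those groups. The falls went from 15 to 35 with 1 read per position, 35 with the second tables, 23 with DESeq2, 25 with the block and 5 with only the 2 groups. In Chr12, with 33 members, entry gave 59 with 1 read per position (31.8%), 64 with the second tables (34.8%) and 47 with the block (28.9%). Its falls went from 12 to 29 with 1 read per position, 35 with the second tables, 21 with DESeq2, 19 with the block and 21 without the highest position. With 1 library left out, entry calls ranged from 8 to 41 in the euploid (rises 6 to 25, falls 2 to 16) and from 1 to 49 in Chr12 (rises 1 to 25, falls 0 to 24). The log phase dosage median of 0.79 was 0.65 with 1 read per position, 0.84 with the second tables and 0.84 without the highest position, and ranged from 0.76 to 0.81 with a library left out. That of day 4 ranged from 0.61 to 0.88 with a library left out and from 0.61 to 0.95 over the other alternatives. The ratio of mean read shares, 1.60 in log phase and 1.71 at day 4, ranged from 1.41 to 1.84 and from 1.46 to 2.08. The causes were not tested. Beside these, the block moved the counts at an unadjusted p given with each strain test, and no other count of members past the FDR by over 1.5 times. DESeq2 was not run for the departures, and the block within phase could not be fitted for entry. Shallow day 4 replicate 1 libraries limit single members.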
